A study of Homo sapiens with 24 samples.

Results

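The 42 genes described here carry out and time the copying and the division of chromosomes. They were chosen by name, as a fixed list of cell cycle and DNA replication genes, with earlier results of these data known. All 42 had an entry among the 38735 named genes of the table. By role they fall into 11 genes that license origins and form the replicative helicase, 7 that build new strands, supply nucleotides or copy chromatin marks, 7 that control G1 and S phase, 10 that control G2 and mitosis, and 7 that act on mitotic chromosomes and the spindle. The cells were THP-1, an established human monocytic leukaemia line, which had been given the phorbol ester PMA (100 nM, 24 h) so that they became like macrophages. All 4 groups had that treatment, and each group has 6 libraries with the letters A to F. DCVC is S-(1,2-dichlorovinyl)-L-cysteine, into which the body can turn the solvent trichloroethylene, and LPS is lipopolysaccharide of the bacterial outer membrane. DCVC_LPS cells had DCVC (5 µM, 24 h) and then, in fresh medium, LPS (100 ng/mL, 4 h). DCVC cells had only the DCVC step, LPS cells only the LPS step, and Control cells neither. The study's title asks whether DCVC dampens the transcriptional response to LPS. All libraries come from 1 cell line, and the labels used here do not say whether the 6 libraries of a group are separate cultures, so p-values measure the spread between these libraries, which may be technical.

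The genes act in sequence. In G1, CDC6 and CDT1 load the MCM helicase onto origins, D cyclins with CDK4 and CDK6 and E cyclins with CDK2 release E2F factors from the retinoblastoma protein, and E2F factors then drive the genes of S phase. In G2 and mitosis, a later wave, driven by B-MYB and FOXM1, supplies the B cyclins, mitotic kinases, checkpoint proteins and spindle motors. Promoters of that wave often hold CHR elements and CCAAT boxes. PMA is known to take THP-1 cells out of the cell cycle as they differentiate, so these genes are read here in cells pushed out of the cycle. In bulk RNA, fewer cells in cycle and less RNA per cell cannot be told apart.

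Values are normalized counts, and each library held between 18478618 and 30107819 reads in named genes. Of the macrophage and monocyte markers, 10 of 10 passed the filter of a mean of at least 10. Their summed level ran from 45549 to 49122 in DCVC_LPS, from 56279 to 63508 in DCVC, from 46581 to 49439 in LPS and from 77442 to 89284 in Control. Of the 10, LPS lowered 6 and raised 0 at an adjusted p under 0.05 (40.6% and 37.8% of all tested genes). DCVC lowered 6 and raised 2 (32.2% and 27.5%). CD68 ran only from 19.2 to 33.3 normalized counts in DCVC_LPS and from 1.52 to 9.47 in Control. Summed T cell markers stayed at or under 14.9 in every library, with CD2 at 0. Summed B cell markers ran from 24.2 to 46.1 in DCVC_LPS, from 29.3 to 62.2 in DCVC, from 101 to 279 in LPS and from 26.5 to 41 in Control. Nearly all of the LPS sum was PAX5 (log2 change 2.58 ± 0.27 (SE), adjusted p = 3.3e-09 for LPS minus Control), with MS4A1 at 0 in every LPS and Control library. Summed epithelial and fibroblast markers stayed at or under 35.3 and 74. The part of these markers in the results below was not tested. The deposited factors leave the groups with different totals, of 21831300, 17774500, 29427300 and 21135400 on average in DCVC_LPS, DCVC, LPS and Control. Rescaling every library to the same total, called equal totals below, shifts all changes. Under equal totals, LPS lowered 8 and raised 0 of the 10 macrophage and monocyte markers (59.5% and 22.4% of all tested genes). DCVC then lowered 5 and raised 2 (20.1% and 46.1%). The median log2 change of all 13900 tested genes was -0.50 under equal totals and -0.03 as deposited for LPS minus Control, 0.22 and -0.03 for DCVC minus Control, 0.36 and -0.07 for DCVC_LPS minus LPS, and -0.33 and -0.03 for DCVC_LPS minus DCVC.

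Promoters are shown for 5 genes around which the LPS and DCVC differences below turn: MCM6, PCNA and CCNB2, which moved one way with LPS and the other way with DCVC before LPS, CDC20, with one of the largest falls, and CCNB1, which moved against CCNB2. RefSeq promoter windows (GRCh38.p14, 250 bases before to 50 after the gene start) were matched by symbol for 33 of the 42 genes, and not for MCM4, MCM5, CCND1, CCND2, CCNE2, CDK2, AURKA, BIRC5 and TPX2. Capitals mark every match, on either strand, to an E2F motif (TTGGCGC or TTCCCGC or TTGCCGC or TTCGCGC), to the CHR element (TTTGAA) or to a CCAAT box (CCAAT), and each run reads 5′ to 3′ on the gene's own strand. The windows are MCM6 at chr2:135876394-135876693, minus strand, PCNA at chr20:5126573-5126872, minus strand, CCNB2 at chr15:59104896-59105195, plus strand, CDC20 at chr1:43358731-43359030, plus strand and CCNB1 at chr5:69166900-69167199, plus strand.
MCM6: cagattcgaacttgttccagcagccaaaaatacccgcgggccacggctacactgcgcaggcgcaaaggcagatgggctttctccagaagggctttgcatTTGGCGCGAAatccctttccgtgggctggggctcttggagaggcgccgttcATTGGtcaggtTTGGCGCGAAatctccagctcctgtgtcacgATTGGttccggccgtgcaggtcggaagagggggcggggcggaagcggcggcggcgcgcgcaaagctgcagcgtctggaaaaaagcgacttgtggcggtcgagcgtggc
PCNA: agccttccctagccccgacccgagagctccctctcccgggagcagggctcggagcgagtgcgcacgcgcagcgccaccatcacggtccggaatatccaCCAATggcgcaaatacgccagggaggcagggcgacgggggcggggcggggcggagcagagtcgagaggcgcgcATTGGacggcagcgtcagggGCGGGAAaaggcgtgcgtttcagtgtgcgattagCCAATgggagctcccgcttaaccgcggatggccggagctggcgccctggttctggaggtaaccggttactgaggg
CCNB2: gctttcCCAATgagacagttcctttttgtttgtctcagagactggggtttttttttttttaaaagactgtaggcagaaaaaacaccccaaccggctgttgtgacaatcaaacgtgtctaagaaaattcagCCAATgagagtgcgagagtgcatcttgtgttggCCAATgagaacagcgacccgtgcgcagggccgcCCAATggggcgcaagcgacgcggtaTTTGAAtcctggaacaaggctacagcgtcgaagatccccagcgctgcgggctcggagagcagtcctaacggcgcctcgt
CDC20: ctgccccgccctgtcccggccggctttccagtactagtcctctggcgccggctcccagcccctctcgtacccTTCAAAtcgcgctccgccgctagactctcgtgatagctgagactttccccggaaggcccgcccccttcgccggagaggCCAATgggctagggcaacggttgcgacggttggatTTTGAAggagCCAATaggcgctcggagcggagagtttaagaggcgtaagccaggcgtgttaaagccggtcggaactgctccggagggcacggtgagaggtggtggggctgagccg
CCNB1: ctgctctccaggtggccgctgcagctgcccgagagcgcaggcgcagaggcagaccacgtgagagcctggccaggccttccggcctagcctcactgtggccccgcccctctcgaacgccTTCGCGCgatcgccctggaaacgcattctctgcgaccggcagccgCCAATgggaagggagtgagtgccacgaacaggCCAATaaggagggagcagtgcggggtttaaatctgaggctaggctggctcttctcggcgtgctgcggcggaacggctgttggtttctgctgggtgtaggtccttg
The MCM6 window holds the run TTGGCGCGAA in 2 places, each of which is read as 2 overlapping E2F matches, one on either strand. The CCNB2 window holds 4 CCAAT boxes and 1 CHR element, the CDC20 window 2 of each, and the CCNB1 window 2 CCAAT boxes and 1 E2F match with no CHR match. An E2F motif was present in 16 of the 33 windows, namely 14 of the 19 of replication and G1 to S genes and 2 of the 14 of G2 and mitosis genes, against 13% of all 35116 promoter windows of the same length. The CHR element was present in 1 and 9 of the same 19 and 14 windows, against 15.2% of all windows, and a CCAAT box in 14 and 12, against 34.6%. A match is a stretch of letters and not a measured binding site. Only the strings listed above were searched, so other forms of these motifs count as absent.

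Levels between genes are compared per kilobase of exon (GENCODE 29). In Control, CCND1 stood highest, at 1502 ± 540.4 normalized counts per kilobase (mean ± SD, n = 6), ahead of CCND3 (472 ± 113) and MCM3 (401 ± 115), whose ranges between libraries overlap each other. The 6 genes of the MCM2 to MCM7 ring lay between 232 and 401 per kilobase in Control, and apart from MCM3 the neighbours in that order differed by less than 1 SD. Among mitotic genes, MKI67 stood at 28.4 ± 23.4, CDK1 at 42.2 ± 42.7 and AURKA at 171 ± 14.7 per kilobase, so that the kinase of the spindle poles was the highest of the 3. CCND2 was nearly silent, at 0, 0 and 1.67 normalized counts (lowest, median and highest) in DCVC_LPS, 1.7, 4.18 and 8.03 in DCVC, 2.67, 5.93 and 8.54 in LPS and 0.761, 2.98 and 5.43 in Control. It fell below the filter and was not tested, which leaves 41 tested genes. Exons of TYMS, CCNE2, RRM2 and MCM2 share 46.6%, 37.1%, 20.2% and 23.6% of their bases with other annotated genes, which lie on the opposite strand for TYMS, CCNE2 and MCM2 and on the same strand for RRM2. Whether counting used the strand is not given in the sources used here, so the values of these 4 genes are less certain than those of MCM5, MCM6, PCNA, CCNB2 and AURKA, which share none.

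LPS lowered most of the replication genes and several mitotic genes within its 4 h. Against Control, LPS lowered 23 and raised 5 of the 41 genes (limma across all genes, Benjamini-Hochberg adjusted p under 0.05), where 40.6% and 37.8% of all 13900 tested genes were called in those directions. The largest falls were those of AURKA (log2 change -3.01 ± 0.15 (SE), adjusted p = 3.51e-15) and CDC20 (log2 change -2.54 ± 0.35 (SE), adjusted p = 3.37e-07), and the 5 risen genes were CCNB1, CCNE1, CCND1, CCNE2 and MCM7 (MCM7 at -0.05 under equal totals). The median log2 change was -0.79 for the 41 genes and -0.03 for all tested genes. In 31 of the 41 genes the LPS library was below the Control library of the same letter for 6 of 6 letters (38.9% of all tested genes), and in 11 the libraries of the groups did not overlap at all (56.8%). Under equal totals 29 genes were lowered and 2, CCNE1 and CCNB1, raised (all tested genes 59.5% and 22.4%). With the letter as a replicate block, 30 were lowered and 6 raised (42.9% and 39.9% of all tested genes). Of the 23 falls, 20 held, where tested, in each of 33 alternative fits that kept all 6 letters or left out 1 library. PLK1, among the 20, was below the filter of a mean of at least 50 and was not tested in that fit. Of these 20, CENPF and KIF11 lost theirs with letters E and F alone. The calls of MCM10, POLA1 and TOP2A ended without any 1 of 3, 4 and 8 libraries, among them Control F, LPS C and LPS D for each.

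**Figure D1:**
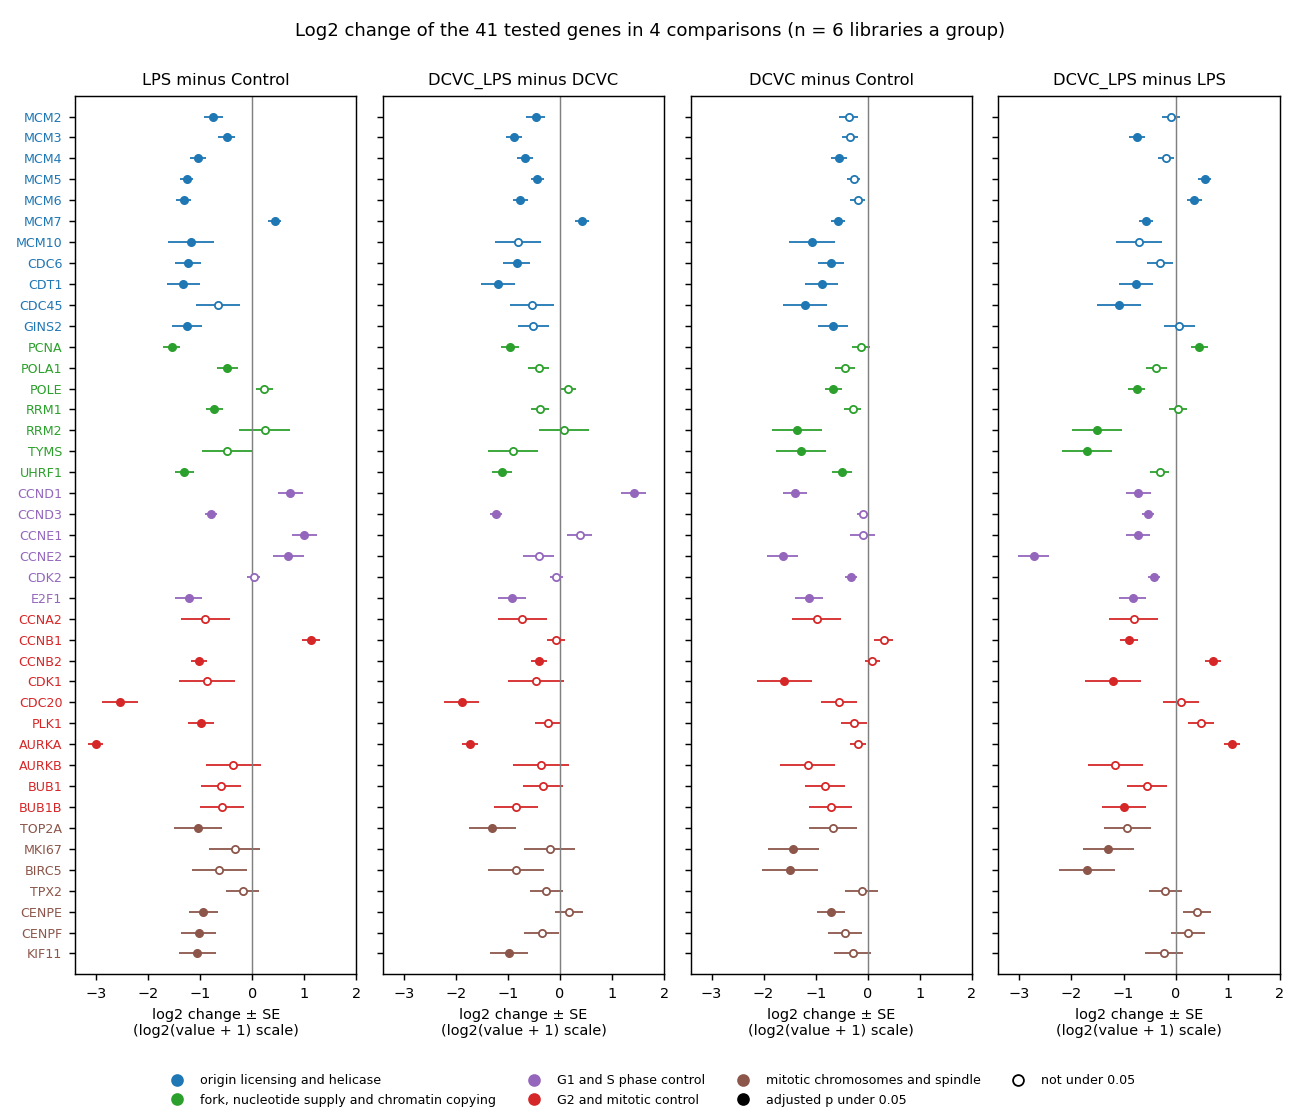
Log2 change with its standard error (x axis) of each of the 41 tested genes (rows, coloured by role) in 4 comparisons, with filled points for an adjusted p under 0.05. AURKA and CDC20 lie farthest to the left with LPS, CCNE2 lies farthest to the left for DCVC_LPS minus LPS, and standard errors are widest for CDK1, BIRC5 and AURKB.

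As deposited and without the replicate block, DCVC alone lowered mainly genes of replication and of G1 and S phase, and raised none. It lowered 7 of 11 licensing, 4 of 7 fork and nucleotide, and 4 of 6 tested G1 and S phase genes. Of the G2 and mitotic control genes it lowered 1 of 10, and of the mitotic chromosome and spindle genes 3 of 7 (32.2% of all tested genes). The median fall was smaller than with LPS, and the calls depended on scaling, the letter and single libraries. DCVC minus Control gave 19 lowered and 0 raised of 41 genes, against 32.2% and 27.5% of all tested genes, with a median log2 change of -0.57 against -0.03. At an unadjusted p under 0.05 limma placed 0 genes higher with DCVC, and edgeR and DESeq2 raised 0 of the 41 at the adjusted threshold. CCNE2 (log2 change -1.63 ± 0.30 (SE), adjusted p = 5.32e-05), CDK1 (-1.60, adjusted p = 0.0127), BIRC5 (-1.49, 0.02), MKI67 (-1.43, 0.0144) and CCND1 (-1.40, 2.33e-05) fell most. The call of BIRC5 was lost without Control F, DCVC A or DCVC B. All 11 licensing genes had a negative log2 change, as did 7250 of all 13900 tested genes. Of the 11, 7 were called lowered (32.2% of all tested genes), and under equal totals none was (20.1%). In the 41 genes, equal totals left 8 lowered and 1, CCNB1, raised (20.1% and 46.1% of all tested genes). The count of 19 also rests on single libraries: it was 8 without Control F, 11 without DCVC A and 11 without DCVC B. No share of all tested genes is given here for these 3 fits. With the replicate block the count was 31, beside 1 raised (36.7% and 31.4% of all tested genes). The DCVC library was the lower one for 6 of 6 letters in 23 genes (33.5% of all tested genes). Only CCNE2 and E2F1 had groups that did not overlap (36.5% of all tested genes). POLE, CCND1, CCNE2, E2F1, CDK1 and MKI67 fell in each of the 33 fits named above, and POLE and E2F1 lost their calls with letters E and F alone.

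In LPS-treated cells, DCVC given beforehand lowered more of these genes than it raised as deposited, as was also so over all tested genes. DCVC_LPS minus LPS gave 18 lowered and 5 raised of 41 genes (39.4% and 33.3% of all tested genes), with a median log2 change of -0.55 against -0.07 over all tested genes. The 5 that were higher in DCVC_LPS were AURKA, CCNB2, MCM5, PCNA and MCM6, and all 5 are among those that LPS lowered. Conversely, the 5 genes that LPS raised were all among the 18 lowered. The LPS libraries serve in both comparisons, so the opposite signs are no independent evidence. The share of all tested genes that turned in the same way is not given here. CCNE2 fell most (log2 change -2.73 ± 0.30 (SE), adjusted p = 1.43e-08), followed by TYMS (-1.70, adjusted p = 0.00285), BIRC5 (-1.70, 0.0066) and RRM2 (-1.51, 0.00707). The scaling matters here: under equal totals the 5 rises stayed and PLK1, RRM1 and CENPE joined them for 8 raised, while of the 18 falls 5 were left, those of CCNE2, TYMS, RRM2, BIRC5 and CCNB1 (54.5% raised and 21.9% lowered among all tested genes). The replicate block gave 25 lowered and 7 raised (42.8% and 36.1%). DCVC_LPS lay below LPS for 6 of 6 letters in 19 genes (39.2% of all tested genes), and the groups did not overlap in 9 (51.7%). Without LPS D the 5 rises became 3, as MCM6 and PCNA lost theirs, and the rise of MCM6 was also lost without LPS C, LPS E, LPS F or DCVC_LPS C.

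The response to LPS after DCVC was again mostly downward. DCVC_LPS minus DCVC gave 16 lowered and 2 raised of 41 genes (32.2% and 29.9% of all tested genes), with CDC20 (log2 change -1.89 ± 0.35 (SE), adjusted p = 4.11e-05), AURKA (-1.73, adjusted p = 4.61e-10), TOP2A (-1.30, 0.0165) and CCND3 (-1.22, 1.76e-09) lowest. CCND1 (1.42, adjusted p = 1.56e-05) and MCM7 (0.43, 0.00702) rose, MCM7 not under equal totals, and the median was -0.47 against -0.03 over all tested genes. Equal totals gave 24 lowered and 1 raised (52.7% and 16.3%), and the replicate block 25 and 3 (36.5% and 33.6%). For 25 genes the DCVC_LPS library was the lower for 6 of 6 letters (36.2% of all tested genes), and 10 genes had groups that did not overlap (45.1%).

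The interaction, which is the LPS change after DCVC minus the LPS change without DCVC, tests whether the 2 responses differ. It was above 0 for 6 genes and below 0 for 3 of 41 (22% and 23.7% of all tested genes). Above 0 were AURKA (log2 change 1.28 ± 0.21 (SE), adjusted p = 3.5e-05), CENPE (1.11, adjusted p = 0.0203), MCM5 (0.83, 0.000543), CCNB2 (0.62, 0.0207), PCNA (0.59, 0.0447) and MCM6 (0.55, 0.0271), each with a weaker fall, or for CENPE a small positive value, with LPS after DCVC. Below 0 were CCNB1 (-1.20, 0.000334), CCNE2 (-1.10, 0.0366) and CCND3 (-0.43, 0.0333). For 32 of the 41 genes no difference between the responses was detected. AURKA, MCM5, CCNB2, CENPE and CCNB1 were called in each of the same 33 fits. On pairs of letters alone, MCM5 kept its call in all 3, while AURKA, CCNB2 and CCNB1 lost theirs with E and F, CCNB2 also with A and B, and CENPE with C and D. In the fits without 1 library, MCM6 lost its call without Control F, and PCNA, CCNE2 and CCND3 lost theirs without any 1 of 16, 9 and 9 libraries, among them Control F for PCNA and LPS F for CCNE2 and CCND3. The 3 values below 0 became 1 without Control C, DCVC E or LPS F, and 5 without Control F. For these fits the share of all tested genes is not given here. Equal totals gave 8 and 1 (33.1% and 16.1% of all tested genes), and the replicate block 12 and 5 (28.2% and 28.2%).

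**Figure D2:**
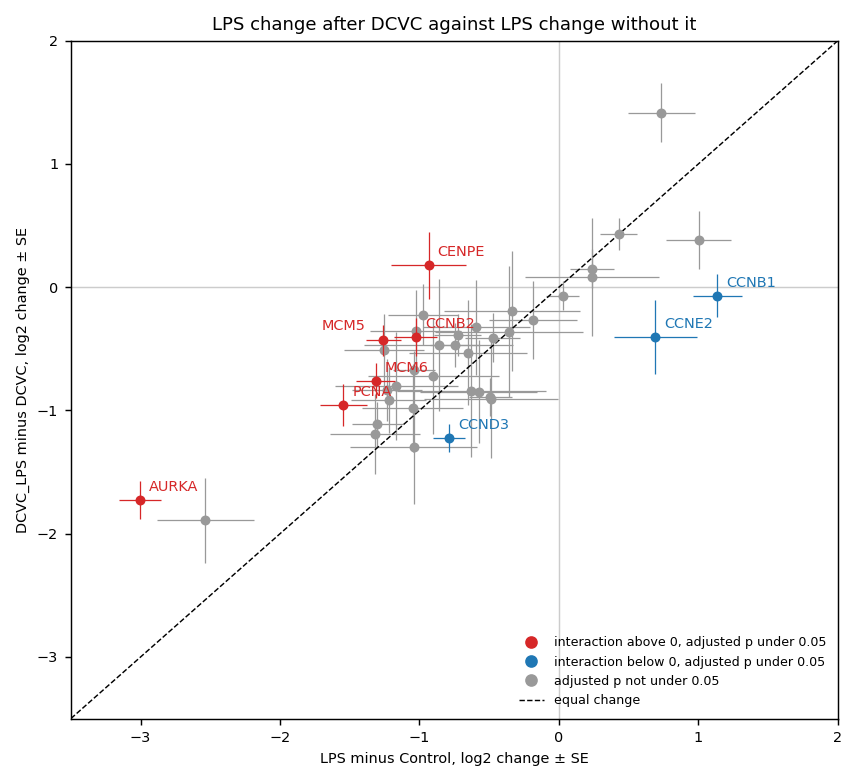
LPS change after DCVC (y axis, DCVC_LPS minus DCVC) against LPS change without it (x axis, LPS minus Control) for the 41 tested genes, as log2 changes with standard errors; the dashed line marks equal change. AURKA, MCM5, MCM6, PCNA, CCNB2 and CENPE lie above the line, and CCNB1, CCNE2 and CCND3 below it.

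Among the 11 licensing and helicase genes, LPS lowered 9 and raised 1 against Control (40.6% and 37.8% of all tested genes), and 10 and 0 under equal totals (59.5% and 22.4%). MCM5, a subunit of the helicase ring (chr22:35400063-35425430, GRCh38), had 899, 1215 and 1320.4 normalized counts in DCVC_LPS (lowest, median and highest, as below), 1239.5, 1497 and 1984 in DCVC, 687, 797 and 819 in LPS and 1596, 1746 and 2622 in Control. Its LPS values all lay below those of the other groups, and each DCVC_LPS value lay above each LPS value. LPS lowered it (log2 change -1.26 ± 0.13 (SE), adjusted p = 1.85e-09), and it was higher in DCVC_LPS than in LPS (log2 change 0.56 ± 0.13 (SE), adjusted p = 0.00038). MCM6 (chr2:135839626-135876426), whose promoter with its pair of E2F runs is printed above, had 415, 538 and 564 in DCVC_LPS, 753, 896 and 986 in DCVC, 338, 363 and 538 in LPS and 774, 1006 and 1374 in Control. LPS A and LPS B were the high LPS libraries, and with them the LPS range overlapped that of DCVC_LPS. It fell with LPS (log2 change -1.31 ± 0.14 (SE), adjusted p = 7.1e-09) and was higher in DCVC_LPS than in LPS by a smaller amount (log2 change 0.36 ± 0.14 (SE), adjusted p = 0.026).

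MCM7, of the same ring, had 957, 1128 and 1277 normalized counts in DCVC_LPS, 652, 779 and 1151 in DCVC, 1514, 1656 and 1823 in LPS and 1053, 1143 and 1876 in Control. LPS was high in 5 of 6 letters against Control, with a log2 change of 0.43 ± 0.13 (SE, adjusted p = 0.00528) that was -0.05 under equal totals. After DCVC it was lower, both without LPS (log2 change -0.57 ± 0.13 (SE), adjusted p = 0.000775) and with it (log2 change -0.57 ± 0.13 (SE), adjusted p = 0.000537), in neither case under equal totals. MCM3 had 553, 578 and 726 in DCVC_LPS, 918, 973 and 1608 in DCVC, 872, 998 and 1244 in LPS and 1126, 1347 and 2292 in Control, and its DCVC_LPS libraries lay wholly below its LPS libraries (log2 change -0.74 ± 0.15 (SE), adjusted p = 0.000147, not called under equal totals). MCM2 and MCM4 fell with LPS (-0.75, adjusted p = 0.000544, and -1.04, 1.1e-06) and were not called between DCVC_LPS and LPS (-0.09 ± 0.18 and -0.18 ± 0.15, SE).

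The loading factors fell with LPS. CDT1 had 32.3, 56.2 and 102 normalized counts in DCVC_LPS, 85.9, 115 and 235 in DCVC, 65.6, 86.1 and 214 in LPS and 173, 225 and 521 in Control, with LPS F the highest LPS library and Control F the highest Control library (log2 change -1.32 ± 0.32 (SE), adjusted p = 0.000688). CDC6 had 62.7, 74 and 114 in DCVC_LPS, 94.1, 132 and 231 in DCVC, 79.9, 91.3 and 145 in LPS and 147, 218 and 474 in Control, and its LPS and Control libraries did not overlap (log2 change -1.23 ± 0.25 (SE), adjusted p = 9.64e-05). GINS2, of the GINS complex that completes the helicase, fell with LPS (-1.25, adjusted p = 0.000375) and was not called between DCVC_LPS and LPS (0.07 ± 0.29, SE, adjusted p = 0.825). CDC45, its partner, was lower after DCVC in both settings (-1.21, 0.0175, against Control, and -1.08, 0.0252, within LPS), in neither case under equal totals. The first was also lost without Control F or DCVC A, and the second without LPS F, DCVC_LPS A or DCVC_LPS B. MCM10, an initiation factor, had 4.18, 13.9 and 22.5 normalized counts in DCVC_LPS, 9.77, 17.1 and 52.4 in DCVC, 9.55, 18 and 59.8 in LPS and 36.5, 40.3 and 101 in Control and fell with LPS (log2 change -1.17 ± 0.44 (SE), adjusted p = 0.0192) and with DCVC (log2 change -1.07 ± 0.44 (SE), adjusted p = 0.04), the DCVC fall not under equal totals. That DCVC fall was also lost without any 1 of 6 libraries, Control F among them.

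Of the 7 fork, nucleotide and chromatin genes, LPS lowered 4 and raised 0 (40.6% and 37.8% of all tested genes). PCNA, the sliding clamp (chr20:5114953-5126626), had 152, 175 and 226 normalized counts in DCVC_LPS, 309, 326 and 418 in DCVC, 100.2, 124 and 212 in LPS and 297, 365 and 641 in Control. LPS and Control did not overlap, and LPS F alone reached the DCVC_LPS range from the LPS side. It fell with LPS (log2 change -1.55 ± 0.17 (SE), adjusted p = 7.17e-09), fell less after DCVC (log2 change -0.96 ± 0.17 (SE), adjusted p = 2.42e-05) and was higher in DCVC_LPS than in LPS (log2 change 0.46 ± 0.17 (SE), adjusted p = 0.0172). UHRF1, which guides maintenance methylation to new DNA, had 139.7, 162 and 208 in DCVC_LPS, 302, 326 and 514 in DCVC, 153, 213 and 316 in LPS and 385, 497 and 802 in Control, with no overlap between LPS and Control (log2 change -1.30 ± 0.19 (SE), adjusted p = 6.89e-07). RRM1, the large ribonucleotide reductase subunit, fell with LPS (-0.73, adjusted p = 0.000434) and POLA1, of the priming polymerase, fell by less (-0.48, 0.0306).

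The nucleotide enzymes TYMS and RRM2 were called with DCVC and, as deposited without the replicate block, not with LPS. Under equal totals TYMS was also lower in DCVC_LPS than in DCVC, and with the block it fell with LPS with and without DCVC. The fall of RRM2 with DCVC against Control was lost without Control F. TYMS, thymidylate synthase, had 36.6, 70.6 and 167 normalized counts in DCVC_LPS, 73.3, 115 and 310.2 in DCVC, 141, 229 and 671 in LPS and 145, 300.3 and 1101 in Control, with letters E and F the high ones in every group, and the groups overlapped. DCVC_LPS was nonetheless lower than LPS for 6 of 6 letters (log2 change -1.70 ± 0.48 (SE), adjusted p = 0.00285), and DCVC lower than Control (log2 change -1.28 ± 0.48 (SE), adjusted p = 0.0253), which was not called under equal totals or without any 1 of 4 libraries, Control F among them. RRM2, the small reductase subunit, had 30.1, 59.7 and 127 in DCVC_LPS, 30.3, 48.2 and 124 in DCVC, 102, 143 and 533 in LPS and 69.3, 118 and 516 in Control, was lower in DCVC_LPS than in LPS (log2 change -1.51 ± 0.48 (SE), adjusted p = 0.00707), and had a log2 change with LPS of 0.24 ± 0.48 (SE, adjusted p = 0.659). POLE, of the leading-strand polymerase, had 307, 346 and 525 in DCVC_LPS, 275, 314 and 495 in DCVC, 588, 642 and 756 in LPS and 449, 528 and 785 in Control. Its DCVC_LPS libraries lay below every LPS library (log2 change -0.75 ± 0.16 (SE), adjusted p = 0.00017, not called under equal totals), and DCVC lowered it against Control (log2 change -0.66 ± 0.16 (SE), adjusted p = 0.000891).

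The G1 and S phase genes moved in different directions. LPS raised 3 and lowered 2 of 6 tested (37.8% and 40.6% of all tested genes), and DCVC_LPS minus LPS gave 6 of 6 lowered, against 39.4% of all tested genes (1 of 6 under equal totals, against 21.9%). CCNE2, an E cyclin, had 69.9, 132 and 185 normalized counts in DCVC_LPS, 101, 167 and 280.1 in DCVC, 729, 828 and 1038 in LPS and 327, 461 and 1361 in Control. Both groups with DCVC lay below every LPS and every Control library. It rose with LPS (log2 change 0.69 ± 0.30 (SE), adjusted p = 0.038), not under equal totals or without any 1 of 8 libraries, LPS F among them, and its LPS change after DCVC was not called as deposited (log2 change -0.41 ± 0.30 (SE), adjusted p = 0.245). DCVC_LPS was nevertheless below DCVC for 6 of 6 letters, a fall that was called under equal totals and with the replicate block. CCNE1, the other E cyclin, had 123, 143 and 171 in DCVC_LPS, 83.5, 103 and 179 in DCVC, 194, 234 and 347 in LPS and 82, 94.2 and 272 in Control, and LPS raised it for 6 of 6 letters (log2 change 1.00 ± 0.24 (SE), adjusted p = 0.00045). In DCVC_LPS it was below every LPS library (log2 change -0.72 ± 0.24 (SE), adjusted p = 0.00835), although not under equal totals.

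CCND1, cyclin D1, had 5065, 7413 and 8816 normalized counts in DCVC_LPS, 1595, 2969.8 and 3963 in DCVC, 8130.5, 11967 and 12818 in LPS and 3599, 8377 and 9886 in Control. LPS was above Control for 6 of 6 letters (log2 change 0.73 ± 0.24 (SE), adjusted p = 0.00756, not under equal totals), and DCVC was below Control for 6 of 6 (log2 change -1.40 ± 0.24 (SE), adjusted p = 2.33e-05). The DCVC_LPS libraries all lay above the DCVC libraries (log2 change 1.42 ± 0.24 (SE), adjusted p = 1.56e-05). CCND3, cyclin D3, had 926, 1085 and 1147 in DCVC_LPS, 2089, 2542 and 2796 in DCVC, 1418, 1549 and 1690.2 in LPS and 1961, 2715 and 3568 in Control and was lower in DCVC_LPS than in any other group, with no overlap against LPS (log2 change -0.53 ± 0.12 (SE), adjusted p = 0.000229, not called under equal totals) or DCVC (log2 change -1.22 ± 0.12 (SE), adjusted p = 1.76e-09). E2F1, an activator of S phase genes, had 40.9, 50.9 and 97 in DCVC_LPS, 69.3, 89.8 and 172 in DCVC, 69.5, 87.3 and 205 in LPS and 181, 211 and 418 in Control. It fell with LPS (log2 change -1.22 ± 0.27 (SE), adjusted p = 0.000217) and with DCVC (log2 change -1.14 ± 0.27 (SE), adjusted p = 0.000806), and every DCVC library lay below every Control library. CDK2, the E cyclin kinase, was lower with DCVC alone (-0.32, adjusted p = 0.0218) and before LPS (-0.42, 0.00292), in neither case under equal totals, and had a log2 change with LPS of 0.03 ± 0.12 (SE, adjusted p = 0.843) that was -0.45 and called under equal totals.

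**Figure D3:**
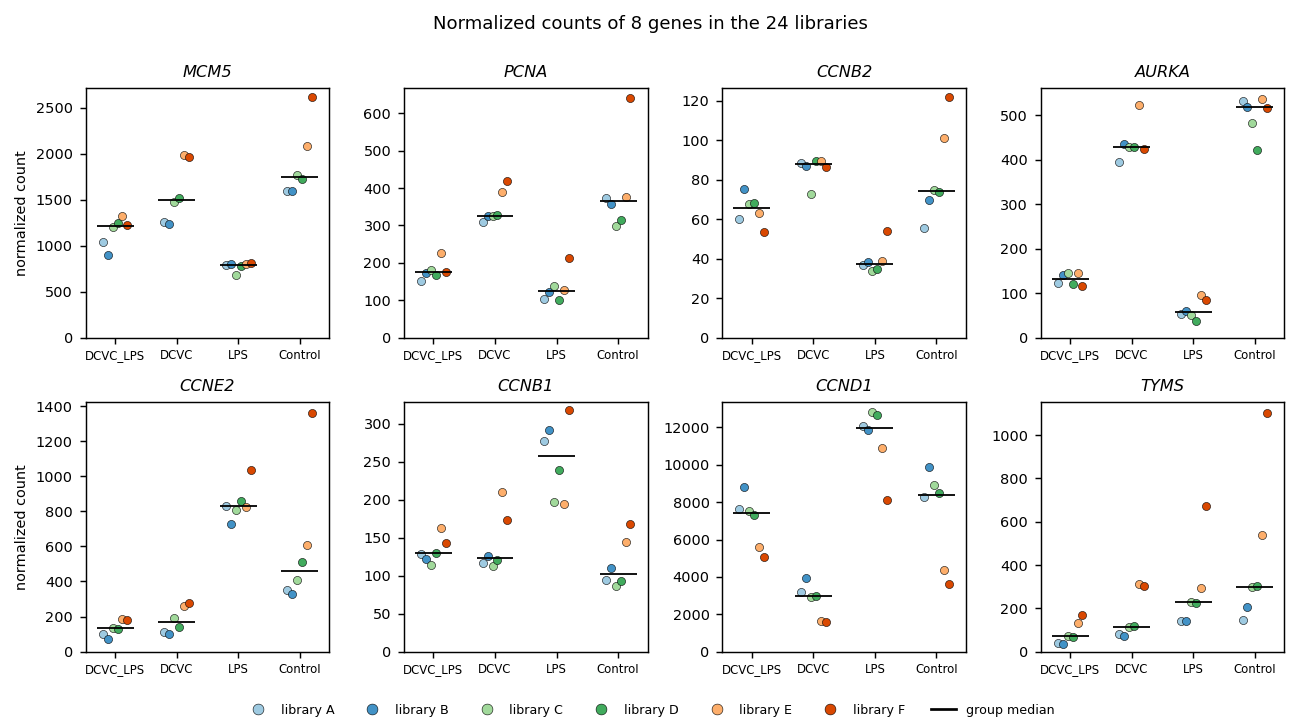
Normalized counts (y axis, from 0) of 8 genes in each of the 24 libraries, by group (x axis) and library letter (colour), with the group median as a line. MCM5, PCNA, CCNB2 and AURKA are lowest in LPS with DCVC_LPS between LPS and DCVC, CCNE2 is low in both groups with DCVC, and Control F stands above the other Control libraries for PCNA, CCNE2 and TYMS.

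Of the 10 G2 and mitotic control genes, LPS lowered 4, about the share of all tested genes (40.6%), and raised 1 (37.8%). AURKA, the spindle pole kinase (chr20:56369389-56392337), had 116, 132 and 146 normalized counts in DCVC_LPS, 394, 428 and 523 in DCVC, 38.2, 57.1 and 97.4 in LPS and 422, 518 and 537 in Control. No LPS library reached the DCVC_LPS range, and neither LPS-treated group reached DCVC or Control. LPS lowered it (log2 change -3.01 ± 0.15 (SE), adjusted p = 3.51e-15) and lowered it less after DCVC (log2 change -1.73 ± 0.15 (SE), adjusted p = 4.61e-10), and DCVC_LPS was higher than LPS (log2 change 1.08 ± 0.15 (SE), adjusted p = 7.55e-07) while DCVC and Control were not called apart (log2 change -0.19 ± 0.15 (SE), adjusted p = 0.277). CDC20, the mitotic activator of the anaphase-promoting complex, had 63.4, 74.9 and 108 in DCVC_LPS, 219, 234 and 547 in DCVC, 30.7, 60.5 and 195 in LPS and 274, 342 and 791 in Control. Its LPS libraries ranged widely, from LPS A to LPS F, and neither LPS-treated group overlapped its counterpart without LPS. DCVC_LPS and LPS were not called apart (log2 change 0.10 ± 0.35 (SE), adjusted p = 0.808), although the value was -0.70 and called with the E and F libraries alone.

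The B cyclins, partners of CDK1, moved apart. CCNB2 had 53.7, 65.5 and 75.3 normalized counts in DCVC_LPS, 73, 87.8 and 89.8 in DCVC, 33.6, 37.6 and 54.1 in LPS and 55.7, 74.3 and 122 in Control. Every LPS library was below every Control library, and LPS F alone reached the lowest DCVC_LPS value. It fell with LPS (log2 change -1.03 ± 0.15 (SE), adjusted p = 1.3e-06) and was higher in DCVC_LPS than in LPS (log2 change 0.71 ± 0.15 (SE), adjusted p = 0.000188). CCNB1 had 114, 129 and 163 in DCVC_LPS, 113, 123 and 209.8 in DCVC, 195, 258 and 318 in LPS and 86.2, 102 and 168 in Control, so that the LPS libraries lay above every DCVC_LPS and every Control library. It rose with LPS (log2 change 1.14 ± 0.18 (SE), adjusted p = 2.35e-06), and after DCVC no change with LPS was called (log2 change -0.07 ± 0.18 (SE), adjusted p = 0.748). These directions held under equal totals, at log2 changes of -1.49 for CCNB2 and 0.66 for CCNB1 with LPS.

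CDK1 had 14, 25.3 and 44.9 normalized counts in DCVC_LPS, 18.6, 36.7 and 85.6 in DCVC, 26.8, 57.1 and 249 in LPS and 41, 99.4 and 484 in Control, and every pair of groups overlapped, with Control F and LPS F far above the rest of their groups. It fell with DCVC (log2 change -1.60 ± 0.54 (SE), adjusted p = 0.0127) and was lower in DCVC_LPS than in LPS (log2 change -1.20 ± 0.54 (SE), adjusted p = 0.047, not under equal totals or without any 1 of 12 libraries, LPS F among them). Its change with LPS was not called as deposited (-0.86 ± 0.54, SE, adjusted p = 0.145). LPS was nevertheless below Control for 6 of 6 letters, a fall that was called with the replicate block, under equal totals and without LPS F. PLK1, a mitotic kinase, fell with LPS (log2 change -0.97 ± 0.25 (SE), adjusted p = 0.00105), and its change between DCVC_LPS and LPS was 0.49 ± 0.25 (SE, adjusted p = 0.0781), a rise under equal totals and with the replicate block. BUB1B, of the spindle checkpoint, was lower in DCVC_LPS than in LPS (-0.99, adjusted p = 0.0384), not under equal totals or without any 1 of 6 libraries, LPS F among them. CCNA2, cyclin A2, had 18.3, 30.9 and 56.2 normalized counts in DCVC_LPS, 30.3, 43.8 and 106 in DCVC, 23.8, 46 and 187 in LPS and 52.9, 77.9 and 355 in Control. Like the passenger complex kinase AURKB and the checkpoint kinase BUB1, it was called in no comparison as deposited without the replicate block. With it, all 3 were lower with DCVC and lower in DCVC_LPS than in LPS, and under equal totals CCNA2 and BUB1 were lower with LPS.

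Of the 7 mitotic chromosome and spindle genes, LPS lowered 4 (TOP2A, CENPE, CENPF and KIF11) and DCVC lowered 3 (MKI67, BIRC5 and CENPE), where 40.6% and 32.2% of all tested genes were lowered. MKI67, the proliferation antigen Ki-67, had 58.4, 81.4 and 168 normalized counts in DCVC_LPS, 53.7, 88.3 and 266 in DCVC, 111, 194 and 745 in LPS and 145, 247 and 932 in Control, with F the high library in each of the 4 groups. It fell with DCVC (log2 change -1.43 ± 0.49 (SE), adjusted p = 0.0144) and was lower in DCVC_LPS than in LPS (log2 change -1.29 ± 0.49 (SE), adjusted p = 0.0208, not under equal totals or without LPS F). Its change with LPS was not called (-0.33 ± 0.49, SE, adjusted p = 0.539). BIRC5, survivin, had 7.53, 18.4 and 41.9 in DCVC_LPS, 15.6, 32.9 and 72.9 in DCVC, 26.6, 53.8 and 219 in LPS and 45.2, 80 and 342 in Control and was lower in DCVC_LPS than in LPS (log2 change -1.70 ± 0.54 (SE), adjusted p = 0.0066). TOP2A, the topoisomerase that untangles sister chromatids, had 84.9, 128 and 262 in DCVC_LPS, 185, 324 and 713 in DCVC, 109, 263 and 783 in LPS and 243, 524 and 1696 in Control, and fell with LPS after DCVC (log2 change -1.30 ± 0.46 (SE), adjusted p = 0.0165).

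CENPE, a kinetochore motor, had 74.4, 100.3 and 126 normalized counts in DCVC_LPS, 65.4, 92.2 and 120.0 in DCVC, 47.3, 70.9 and 137 in LPS and 75.1, 123 and 324 in Control. It fell with LPS (log2 change -0.93 ± 0.27 (SE), adjusted p = 0.00308), whereas after DCVC its LPS change was 0.18 ± 0.27 (SE, adjusted p = 0.584). Its fall with DCVC against Control was not called under equal totals or without any 1 of 4 libraries, Control F among them. CENPF, a kinetochore protein, fell with LPS (-1.03, adjusted p = 0.00662) and was not called between DCVC_LPS and LPS (0.24 ± 0.33, SE, 0.521). KIF11, the motor that keeps the spindle poles apart, fell with LPS with and without DCVC (-0.98, adjusted p = 0.0211, and -1.05, 0.0106), the first not without DCVC E. TPX2, which activates AURKA at the spindle, was called in no comparison, with log2 changes between -0.27 and -0.12 in the 4 comparisons between groups.

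The letters A to F accounted for much of the spread of these genes. The letter took a median of 29.7% of a gene's sum of squares over the 24 libraries, and the group 51.6%, against 7.26% and 83.5% over all tested genes. In 13 of the 41 genes the letter took more than the group, up to 70.9% for TPX2, while AURKA stood at 1.79%. Control F was the highest Control library for 38 of 41 genes and LPS F the highest LPS library for 38 of 41, where 20% and 20.9% of all tested genes had their highest value there. Library E was the highest for 27 genes in DCVC_LPS and for 26 in DCVC (16.2% and 15.8% of all tested genes). Both E and F lay above all of A to D in 25 genes in DCVC_LPS, 36 in DCVC, 22 in LPS and 32 in Control, against 14.7%, 16.3%, 13.7% and 18.7% of all tested genes. The ratio of highest to lowest library had a median over the 41 genes of 1.71 in DCVC_LPS, 2.46 in DCVC, 2.7 in LPS and 3.01 in Control. Over all tested genes the medians were 1.38, 1.36, 1.48 and 1.48 in the same order.

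MKI67 shows the pattern in full. Libraries A to F had 58.4, 74.2, 88.7, 65, 157 and 168 normalized counts in DCVC_LPS and 54.5, 53.7, 88.4, 88.3, 245 and 266 in DCVC. They had 149, 111, 185, 203, 318 and 745 in LPS and 157, 145, 241, 252, 458 and 932 in Control. In every group E and F were the 2 highest libraries. CCND1 ran the other way, at 7628, 8816, 7514, 7312, 5604 and 5065 in DCVC_LPS, 3176, 3963, 2944, 2995, 1644 and 1595 in DCVC, 12078, 11855, 12818, 12671, 10900 and 8130.5 in LPS and 8266, 9886, 8942, 8487, 4359 and 3599 in Control, where E and F were the 2 lowest libraries of every group. Across the 24 deviations from group means, which share letters and libraries, CCND1 had a Pearson r of -0.898 with MKI67. TOP2A (0.965), TYMS (0.963), CCNA2 (0.957) and RRM2 (0.954) followed MKI67 most closely, and MCM6 (-0.128), CCND3 (0.19) and AURKA (0.393) least. The labels do not say what the letters stand for beyond naming replicates, and what sets E and F apart was not tested.

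**Figure D4:**
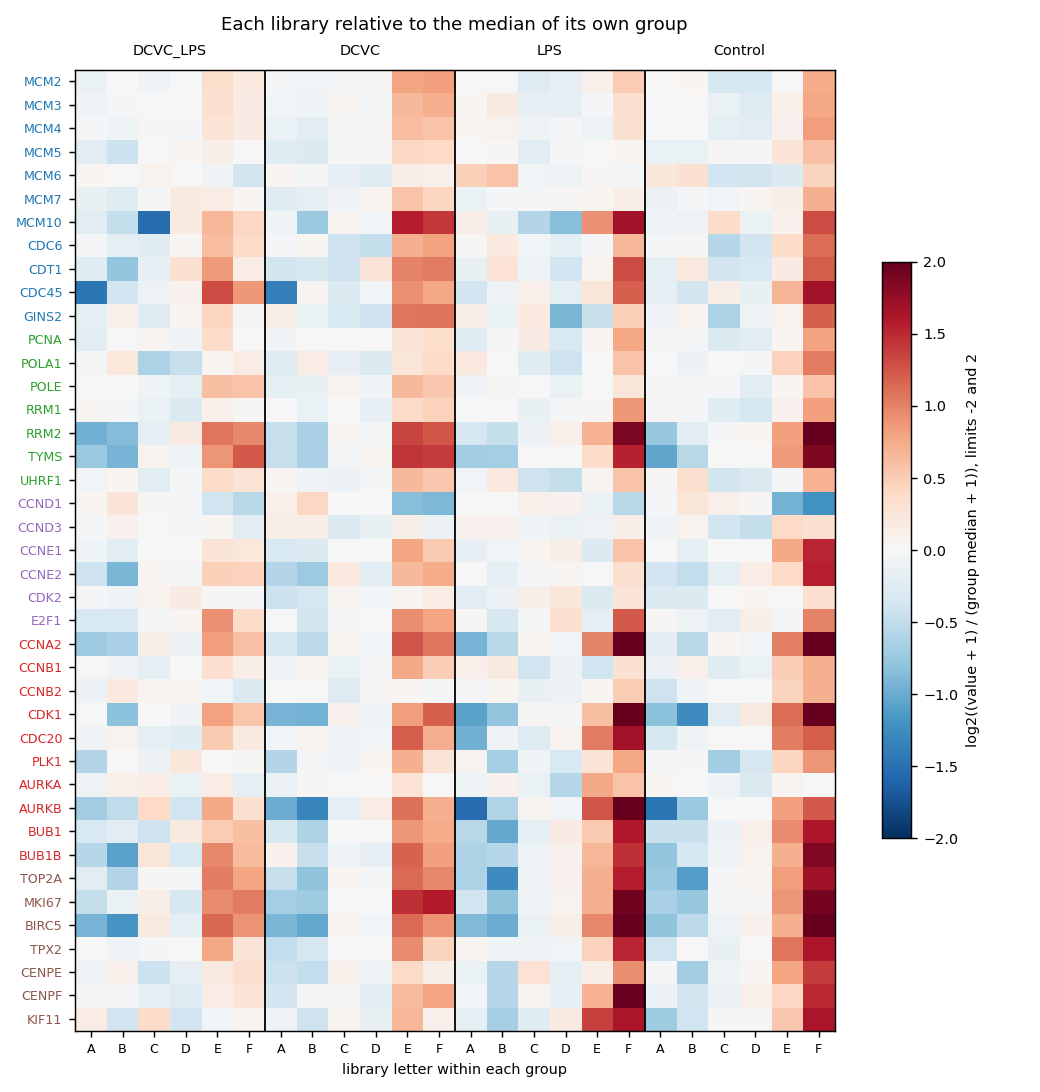
Each of the 24 libraries (columns, by group and letter) relative to the median of its own group (colour, log2 scale limited at -2 and 2) for the 41 tested genes (rows, coloured by role as in the plot of changes). Libraries E and F are red for most genes in every group and F most strongly in LPS and Control, CCND1 runs blue where the others run red, and AURKA and CCND3 stay pale.

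Further genes of the same processes, taken from 2 lists chosen with earlier results of these data known, moved partly alike. Of 43 tested other replication genes, LPS lowered 26 and raised 7 (40.6% and 37.8% of all tested genes, median log2 change -0.66, beside -0.03 over all tested genes), with DNMT1, the maintenance methyltransferase that UHRF1 recruits, at log2 change -1.85 ± 0.07 (SE), adjusted p = 4.1e-17. It had 1542, 1582 and 1769.5 normalized counts in DCVC_LPS, 2568, 2661 and 2984 in DCVC, 1640.5, 1873 and 2330.3 in LPS and 6158, 6987 and 8069 in Control, and Control lay above every other library. RPA1 (-1.55, adjusted p = 2e-14) and RFC1 (-1.44, 2.47e-12), of the single-strand binder and the clamp loader, fell too, while POLD2 (1.21, 2.84e-09), of polymerase delta, rose. DCVC_LPS minus LPS gave 12 raised and 10 lowered of these 43 (33.3% and 39.4% of all tested genes), with RFC1 higher (0.84, 7.54e-08) and POLD2 lower (-1.23, 3.74e-09), and 25 and 4 under equal totals (54.5% and 21.9%). Of 53 other mitosis genes LPS lowered 30 and raised 5 (all tested genes 40.6% and 37.8%), and 43 and 0 under equal totals (all tested genes 59.5% and 22.4%). Their median as deposited was -0.98, with LMNB1, lamin B1, at -2.16 (1.44e-07) and CKAP2 at -1.68 (1.84e-10). DCVC_LPS minus LPS gave 11 raised and 16 lowered of the 53, and 18 and 8 under equal totals, beside the same shares of all tested genes as for the 43. The mitotic kinesin KIF14 (2.63, 4.32e-10) and the cohesin protector SGO2 (1.55, 1.85e-09) were higher, and the kinesin KIF23 (-1.57, 3.45e-06) and LMNB1 (-1.45, 5.79e-05) lower.

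Among inhibitors of the cyclin-dependent kinases, members were called with each agent. Of 6 tested of 8, LPS lowered 5 and raised 1 (40.6% and 37.8% of all tested genes). DCVC raised 3 and lowered 1, against 27.5% and 32.2% of all tested genes. Under equal totals DCVC raised 3 and lowered 0, against 46.1% and 20.1%. CDKN2A and CDKN2B fell below the filter. The median log2 change was -0.97 with LPS and 0.43 with DCVC. CDKN1A, p21, had 32967, 35237 and 37103 normalized counts in DCVC_LPS, 14971, 19879 and 22496 in DCVC, 37037, 42370 and 44685 in LPS and 14059, 21175 and 23440 in Control, and both LPS-treated groups lay above both others (log2 change 1.04 ± 0.10 (SE), adjusted p = 1.54e-09). CDKN2C, p18, an inhibitor of CDK4 and CDK6, had 3221, 3516 and 3878 in DCVC_LPS, 5236, 5669.7 and 6119 in DCVC, 709.7, 757 and 1225 in LPS and 958, 1252 and 2456 in Control. Every library with DCVC lay above every library without it, both alone (log2 change 2.07 ± 0.16 (SE), adjusted p = 1.08e-10) and before LPS (log2 change 2.11 ± 0.16 (SE), adjusted p = 2.38e-11). CDKN1C, p57, was likewise higher with DCVC alone (1.75, adjusted p = 1e-09) and before LPS (2.43, 1.08e-12), at 41.1, 53.4 and 63.4 in DCVC_LPS, 61.6, 70.3 and 86.9 in DCVC, 7.12, 8.64 and 11.6 in LPS and 18.9, 19.5 and 27.3 in Control. CDKN1B, p27, fell with LPS (-1.19, 6.93e-08). CDKN3, a phosphatase that acts on CDK2 and CDK1, had 133, 172 and 185 in DCVC_LPS, 55.7, 64.4 and 72.3 in DCVC, 8.87, 15.7 and 38.4 in LPS and 18.8, 27 and 106 in Control, and its LPS change differed after DCVC by 2.31 ± 0.47 (SE, adjusted p = 0.000266).

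Of the 18 regulators of the E2F, pocket protein and MYB-FOXM1 kind, LPS raised 7 and lowered 7, about the shares of all tested genes (37.8% and 40.6%; 4 and 9 under equal totals, against 22.4% and 59.5%, median -0.21 as deposited). RB1, the retinoblastoma protein, had 2136, 2441 and 2744 normalized counts in DCVC_LPS, 2684, 3431 and 3899 in DCVC, 1316, 1382 and 1652 in LPS and 2758, 3123 and 3246 in Control, fell with LPS (log2 change -1.09 ± 0.08 (SE), adjusted p = 3.73e-12) and was higher in DCVC_LPS than in LPS (log2 change 0.75 ± 0.08 (SE), adjusted p = 6.69e-09), with no overlap in either case. E2F7, a repressor of E2F targets, had 549, 630.4 and 687 in DCVC_LPS, 183, 265 and 443 in DCVC, 1737, 2027 and 3226 in LPS and 426, 468 and 629 in Control, rose with LPS (log2 change 2.16 ± 0.19 (SE), adjusted p = 2.02e-10) and was lower in DCVC_LPS than in LPS (log2 change -1.86 ± 0.19 (SE), adjusted p = 5.56e-09). RBL1, p107, fell with LPS (-1.71, adjusted p = 7.73e-09), as did E2F2 (-2.93, 9.28e-06). MYBL2, which encodes B-MYB, and FOXM1 were not called with LPS (-0.21 ± 0.57 and -0.21 ± 0.46, SE), and both were lower in DCVC_LPS than in LPS (-2.05, 0.00243, and -1.46, 0.00626), as was E2F8 (-2.36, 0.0004).

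Among the 10 cyclin partners and activators, LPS raised 6 and lowered 2, against 37.8% and 40.6% of all tested genes (5 and 5 under equal totals, against 22.4% and 59.5%, median 0.66 as deposited). MYC, a growth-driving factor, had 3600.3, 4518 and 4885 normalized counts in DCVC_LPS, 1024, 1181 and 1512 in DCVC, 6989.9, 7824 and 8996 in LPS and 727, 939 and 1447 in Control, rose with LPS (log2 change 3.02 ± 0.13 (SE), adjusted p = 1.48e-16) and was lower in DCVC_LPS than in LPS (log2 change -0.88 ± 0.13 (SE), adjusted p = 1.59e-06), with no overlap in either case. CDK4 (1.12, adjusted p = 1.83e-13) and CDK6 (1.36, 1.37e-14), the D cyclin kinases, rose with LPS, as did WEE1, which holds CDK1 inactive (1.81, 4.69e-14), while SKP2, the F-box protein that marks p27 for breakdown, fell (-2.13, 1.21e-10). In DCVC_LPS, CDK4 (-1.02, 3.12e-12) and WEE1 (-1.22, 2.13e-10) were lower than in LPS, and CDK6 was not called (-0.12 ± 0.07, SE, 0.143), although it was higher under equal totals.

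**Figure D5:**
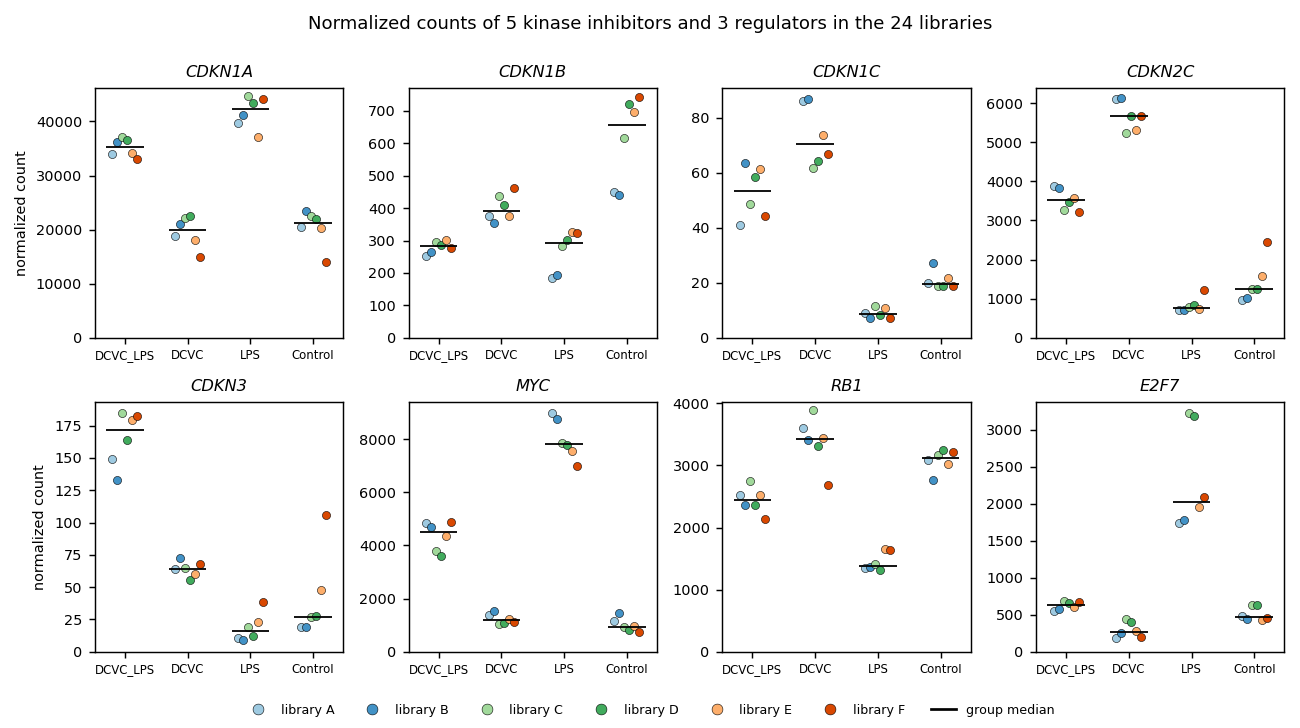
Normalized counts (y axis, from 0) of 5 kinase inhibitors and 3 regulators in each of the 24 libraries, by group (x axis) and letter (colour), with the group median as a line. CDKN2C and CDKN1C are high in both groups with DCVC, CDKN1A and MYC are high in both LPS-treated groups, and RB1 is lowest in LPS.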

How the data were processed

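Poly-A selected RNA of 24 libraries (4 groups of 6) was sequenced, and the deposited table holds 1 value per gene and library. Per the submitters' processing notes, reads on build hg38 were handled with STAR and featureCounts 1.6.1, and the notes also list DESeq2 1.24.0, R 3.6.0, MultiQC 0.9 and FastQC 0.11.5. Whether counting used the strand is not given in the sources used here. Values deposited by the authors are normalized counts (a signal, read counts divided by a size factor per library): in each library 100% of values were whole multiples of 1 step, within 0.1 read, so that whole reads could be recovered for 24 of 24 libraries. Groups were taken from the sample titles, and 1 and 10 µM DCVC, which the protocols mention, are not analysed here. Of 58381 entries, 19595 (33.6%) carry no gene name and hold 1.01% of the values on average. They were left out of totals and tests, and 51 symbols with several entries were summed, giving 38735 named genes.

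Genes with a mean of at least 10 were tested with limma 3.58.1 (R 4.3.3, empirical Bayes with trend) on log2(value + 1), which understates changes of low genes, in 1 fit of 24 libraries with 20 residual degrees of freedom, and p-values were adjusted over 13900 genes (Benjamini-Hochberg, threshold 0.05). Alternatives were equal totals, other pseudocounts and filters, edgeR 4.0.16 and DESeq2 1.42.0 on recovered reads, letter pairs alone, each library left out, and the letter as a replicate block. Same-letter libraries of different groups deviated together (correlation of deviations from group means over all genes 0.134 to 0.539, above 0.1 in 36 of 36 pairs), so the letters pair the libraries. The other letter of A and B, C and D, or E and F correlated nearly as much (median 0.286 against 0.33, above 0.1 in 35 of 36), and no other pair of letters did (0 of 144), so the 6 letters fall into 3 sets and may not be 6 independent blocks. The limma fit was also run on simulated counts drawn without letter effects, so that run cannot test p-values under the letter pattern seen here. The 42 genes and all lists were chosen with earlier results of these data known. Named genes were the 42, up to 3 risen and 3 fallen genes with the smallest adjusted p per further list and comparison, and 13 regulators always named. Gene positions and exon lengths come from GENCODE 29, and tables were made with Python 3.11.15 and pandas 2.3.3.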

Additional observations from a re-analysis of the deposited data

Results flagged for a closer look

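Single libraries stood apart from the other 5 of their group in 46 of 216 checks (54 genes in 4 groups). Each flag was a gap to the nearest library above Dixon's 95% critical share of the group's range. Chance gives such a gap in about 1 in 20 independent groups. These checks share the same libraries over genes that deviate together, so their count cannot be set against that rate. The share of all tested genes flagged is not given here. Control F, the highest Control library, accounted for 21 of the 46 flags. In normalized counts these were MCM2 at 1821, MCM3 at 2292, MCM4 at 2764, MCM7 at 1876, MCM10 at 101, CDT1 at 521, CDC45 at 227, GINS2 at 211 and PCNA at 641. They were also POLE at 784, RRM1 at 1258, RRM2 at 516, CCNE2 at 1361, E2F1 at 418, CCNA2 at 355, BUB1B at 341, BIRC5 at 342, CENPF at 705 and KIF11 at 196, and outside the 42 genes E2F2 at 158 and E2F8 at 122. LPS F, the highest LPS library, accounted for 17. These were CDT1 at 214, CDC45 at 114, PCNA at 212, RRM1 at 752, RRM2 at 532, TYMS at 671, E2F1 at 205, CCNB2 at 54.1, CDK1 at 249, BUB1 at 215, MKI67 at 745, TPX2 at 379 and CENPF at 453, and outside the 42 genes CDKN2C at 1225, FOXM1 at 149.5, MYBL2 at 1044 and E2F2 at 14.2. Other libraries gave the remaining flags, in normalized counts: MCM5 in LPS C (lowest, 687), MCM6 in DCVC_LPS F (lowest, 415), CCNB2 in DCVC C (lowest, 73) and AURKA in DCVC E (highest, 523). The others were TPX2 in DCVC_LPS E (highest, 218), CDKN1A in Control F (lowest, 14059), CDK6 in DCVC_LPS B (highest, 14053) and E2F8 in DCVC_LPS F (highest, 17.1). What sets these libraries apart was not tested.

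The LPS change after DCVC differed from the LPS change without it, by the interaction test, for 9 of the 41 tested genes. The interaction was above 0 for 6 and below 0 for 3, where 22% and 23.7% of all tested genes were called. The differences on the log2 scale were 0.83 for MCM5, 0.55 for MCM6, 0.59 for PCNA, -0.43 for CCND3, -1.10 for CCNE2, -1.20 for CCNB1, 0.62 for CCNB2, 1.28 for AURKA and 1.11 for CENPE. Among the genes always named outside the 42, they were 0.67 for CDKN1B, -0.93 for CDK4, -1.19 for MYC, 0.62 for RB1 and -1.0 for E2F7.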

How the results depend on the processing

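Over the 205 log2 changes (41 genes, 5 comparisons), pseudocounts of 0.5 and 5, no filter or a mean of at least 50, edgeR with TMM or the deposited factors and DESeq2 ended at most 10 calls each (a mean of at least 50 tests 190 of them). DESeq2 gave 195 unchanged, 7 gained and 3 lost, and edgeR with TMM gave 195, 4 and 6. Equal totals left 155 unchanged, gained 19, lost 28 and turned 3: MCM7 (-0.047) and CDK2 (-0.45) for LPS minus Control, and CDK2 (0.0098) for DCVC_LPS minus LPS. CDC20 turned to -0.70 for DCVC_LPS minus LPS with letters E and F only. In the 24 fits without 1 library, 4703 of 4920 values were unchanged, 66 gained and 151 lost their call.

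Counts of genes moved most with scaling, the letter and single libraries. With the replicate block (the letter, which pairs the libraries), 1 gene was raised and 31 lowered for DCVC minus Control, 25 were lowered for DCVC_LPS minus DCVC, and the interaction gave 12 above and 5 below 0. The other counts stayed within 1.5 times under the block, and it ended no call among the 205. With equal totals, LPS minus Control had 2 raised, DCVC minus Control 1 raised and 8 lowered, DCVC_LPS minus LPS 8 raised and 5 lowered, DCVC_LPS minus DCVC 1 raised, and the interaction 1 below 0. With only letters A and B, DCVC_LPS minus LPS had 8 raised, DCVC_LPS minus DCVC 5 raised, and the interaction 12 above and 5 below 0. With only C and D, DCVC minus Control had 1 raised and 29 lowered, and the interaction 5 below 0. With only E and F, LPS minus Control had 2 raised, DCVC_LPS minus LPS 2 and DCVC_LPS minus DCVC 1, while the interaction gave 2 above and 0 below 0. Without 1 library in turn, raised and lowered genes numbered 4 to 6 and 20 to 26 for LPS minus Control, 0 to 1 and 8 to 26 for DCVC minus Control, 3 to 6 and 13 to 20 for DCVC_LPS minus LPS, and 2 and 14 to 18 for DCVC_LPS minus DCVC, with 5 to 8 and 1 to 5 for the interaction. The cause was not tested. For the fits on letter pairs and those without 1 library, the share of all tested genes called is not given here. Their counts therefore cannot show whether these genes moved more than other genes did in the same fit. Libraries of 18478618 to 30107819 reads leave low genes, such as CCND2, with wide counting error.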
